A study of Mus musculus with 24 samples.

Results

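The motile cilium genes described here were the gene symbols of the count files that begin with Cfap, Dnah, Dnaic, Dnali, Dnaaf, Rsph, Tekt or Drc. Of the 63 symbols with these prefixes, 61 had at least 10 counts in 3 or more of the 22 libraries that passed quality control, out of 49568 symbols in all. The libraries are of whole hippocampus from male mice on a C57-Bl/6 background (C57-Bl/6J, after backcrosses from C57-Bl/6n), aged 12 weeks by the labels and 3 to 4 months by the methods, that were homozygous either for the WT or for the kinase-dead (KD) allele of MSK1, a kinase encoded by Rps6ka5 that acts downstream of growth factor signaling in neurons. In the KD allele a single residue of the N-terminal kinase domain is mutated in the endogenous gene in every cell, so the counts of Rps6ka5 do not check the genotype label, and WT and KD mice were bred as separate homozygous lines. Mice of both genotypes were kept in standard housing (SH) or were reared from before birth in an enriched environment (EE), larger cages with a running wheel and toys. This gave the 4 groups WTSH, WTEE, KDSH and KDEE with 6 libraries each. The study set aside libraries 33B (WTEE) and 34B (KDEE) for failed quality control and 5 more for poor correlation within their group, which left 17: 5 WTSH, 3 WTEE, 5 KDSH and 4 KDEE. Comparisons of groups were made on these 17 libraries, and each is also given for the 22. The 17 were chosen on the expression values that are tested here, so their spread within groups may be too small. The 5 libraries removed for poor correlation were 12 (WTSH), 31B and 35A (WTEE), 2 (KDSH) and 9 (KDEE).

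A motile cilium beats through its axoneme, a ring of doublet microtubules around a central pair. Outer and inner dynein arms on the doublets are the motors, radial spokes and the nexin-dynein regulatory complex pass signals to the arms, and tektins strengthen the doublets from within. In the brain such cilia stand on ependymal cells, which line the ventricles. The epithelium of the choroid plexus, which secretes cerebrospinal fluid, bears cilia too, and their structure and beating were not examined here. Foxj1 is the transcription factor that switches on the genes of motile cilia, and Ttr encodes transthyretin, an abundant product of choroid plexus epithelium. The ventricle, and the choroid plexus within it, adjoin the hippocampus. In RNA of a whole tissue, fewer cells of a type and less RNA per cell cannot be told apart.

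The counts on genes were between 8911999 and 56752074 in the 22 libraries, with the fewest in library 9 (KDEE). Levels are CPM, the counts of a gene relative to a library size scaled by the TMM method of edgeR, and levels between genes are set side by side only per kilobase of exon (RPKM). Ttr stood at 28.5, 691, 36.3, 48.9 and 34.4 CPM in WTSH and at 4732, 3682 and 4666 CPM in WTEE. In KDSH it was 67.0, 128, 136, 16.8 and 17.9 CPM and in KDEE 910, 1964, 2694 and 5129 CPM. Every EE library of the 17 thus lay above every SH library of its genotype. The removed libraries went the other way, with 1661 CPM in library 12 and 2624 CPM in library 2, both SH, and with 41.7, 34.2 and 167 CPM in 31B, 35A and 9, all EE. Foxj1 was 10.1 to 14.6 CPM in WTSH and 19.3 to 24.3 CPM in WTEE of the 17, and 9.28 to 12.1 CPM in KDSH and 15.2 to 22.8 CPM in KDEE. Among the removed libraries Foxj1 was high in library 2 (20.5 CPM), and it was 12.7 CPM in library 12 and 9.29 to 10.6 CPM in 31B, 35A and 9. The summed level of the 15 choroid plexus markers was 247 to 1358 CPM in WTSH, 5991 to 8115 CPM in WTEE, 227 to 444 CPM in KDSH and 1688 to 8439 CPM in KDEE, and none of the 15 was at 0 in any library.

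Most of the motile cilium genes were weakly expressed per length. The median of the 61 genes was 0.727 RPKM, 27 had a mean of at least 1 RPKM, and 23 were under 0.5 RPKM. Cfap36 (30.4 RPKM), Cfap20 (8.48 RPKM), Rsph9 (8.31 RPKM) and Cfap97 (6.71 RPKM) were the highest, and Dnah8 (0.0321 RPKM) was the lowest. In comparison, the mean was 5.53 RPKM for Foxj1 and 1131 RPKM for Ttr. At the edge of the rule, Rsph6a had 10 counts in 7 libraries and Rsph14 in 15, while Tekt3, left out, reached it in 1 library and Dnah2os in 0. A floor of 3 counts stood for 0.0542 to 0.334 CPM in the 22 libraries, for counting error only, and Cfap53 and Rsph14 had no count in library 7, the second shallowest. The counting was unstranded and of unique alignments, and 29 of the 61 genes overlap exons of another gene on either strand. Near-identical copies share much of Rsph3a (48.2% of its 100-base windows) and Rsph3b (52.8%), and 14.4% to 23.9% of Dnah7a, Dnah7b and Dnah7c, and an overlapping gene shares 64.6% of Dnaaf2 and 17.8% of Dnaaf1, so the values of these genes are uncertain.

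To show the sequence in front of the genes that moved together, promoters were taken from RefSeq (GRCm38.p6), from 250 bases before to 50 after a start, for 51 of the 61 genes (58 promoters). X-boxes, bound by RFX factors of cilium genes, and forkhead motifs, bound by Foxj1 and its relatives, were searched on both strands. The single X-box arm GTTGCCA stood in 11 of 58 promoters (19.0%), against 4.38% of all 32851 promoters of this length. The forkhead letters TGTTTAC stood in 3 (5.17%), against 3.65% of all. The paired X-box letters GTTNCC, 0 to 3 bases, GGNAAC stood in 0 of the 58, against 0.804% of all. Only these exact letters were searched, so X-boxes with other letters were not counted, and a promoter without a match may still carry one. No 2 of these matches overlapped in the promoters printed. Of the 18 genes that rose in WTEE against WTSH (edgeR, described next), 16 had a promoter. Those with a match to these letters were Cfap43, Cfap44 and Tekt1, and 9 of the other 35 genes with a promoter had one. The 3 promoters with a match are printed with the matches in capitals, in the direction of transcription, and that of Drc7, the gene with the largest fold change, is printed without one. Cfap43 lies on the minus strand (chr19:47837312-47837611), with the reverse of the forkhead letters 55 bases before the start. Cfap44 lies on the plus strand (chr16:44394549-44394848), with the reverse of the arm 130 and 20 bases before the start. Tekt1 lies on the minus strand (chr11:72361833-72362132), with the arm 15 bases before the start, and Drc7 on the plus strand (chr8:95054853-95055152).
Cfap43: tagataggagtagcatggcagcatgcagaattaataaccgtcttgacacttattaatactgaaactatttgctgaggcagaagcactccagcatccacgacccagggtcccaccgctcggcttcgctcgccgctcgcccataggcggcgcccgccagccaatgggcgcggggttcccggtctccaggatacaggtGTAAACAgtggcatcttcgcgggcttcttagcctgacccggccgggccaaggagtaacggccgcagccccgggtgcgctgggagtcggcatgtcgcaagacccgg
Cfap44: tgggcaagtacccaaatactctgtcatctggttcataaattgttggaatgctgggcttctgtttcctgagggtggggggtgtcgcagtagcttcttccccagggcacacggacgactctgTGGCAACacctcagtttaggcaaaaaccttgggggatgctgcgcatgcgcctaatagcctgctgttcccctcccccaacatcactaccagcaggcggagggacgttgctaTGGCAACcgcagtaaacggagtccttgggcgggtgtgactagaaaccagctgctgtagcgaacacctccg
Tekt1: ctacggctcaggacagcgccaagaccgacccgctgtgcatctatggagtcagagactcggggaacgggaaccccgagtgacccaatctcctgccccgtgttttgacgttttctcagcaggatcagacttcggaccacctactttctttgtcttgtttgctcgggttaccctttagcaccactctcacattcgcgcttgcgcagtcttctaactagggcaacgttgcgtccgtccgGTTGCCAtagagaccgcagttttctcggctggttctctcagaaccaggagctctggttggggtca
Drc7: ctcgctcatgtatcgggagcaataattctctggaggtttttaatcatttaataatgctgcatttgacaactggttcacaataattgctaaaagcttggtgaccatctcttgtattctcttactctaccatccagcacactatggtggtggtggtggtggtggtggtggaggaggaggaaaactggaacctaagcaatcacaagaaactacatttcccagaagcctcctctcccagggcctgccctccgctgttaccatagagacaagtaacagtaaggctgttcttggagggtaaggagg

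The comparison of WTEE with WTSH asks which genes differ between EE and SH in WT mice. Of the 61 motile cilium genes, 18 were called higher and 0 lower in the 17 libraries (edgeR quasi-likelihood test, Benjamini-Hochberg adjusted p of 0.05 or less with a log2 fold change of at least 0.38 in size), where 3.55% of the 18701 genes tested were called. The median log2 fold change was 0.34 over the 61 genes and 0.00 over all genes tested, and 49 of the 61 were positive. In 26 of the 61 every WTEE library lay above every WTSH library, against 8.11% of all genes tested, and in 0 of the 61 below. With the 22 libraries WTEE and WTSH overlapped in each of the 61, and the share over all genes was not counted there. The summed level of the 61 genes was 445.8 to 497 CPM in WTSH and 571.1 to 591.2 CPM in WTEE, and 407.5 and 420.7 CPM in the removed WTEE libraries. With the 22 libraries none was called (0% of all genes), 9 of the 61 had an unadjusted p under 0.05, DESeq2 was not run on that set, and the median was 0.16. The calls were thus lost when the 5 removed libraries entered, of which 12, 31B and 35A belong to WTSH or WTEE. The cause of this loss was not tested.

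**Figure D1:**
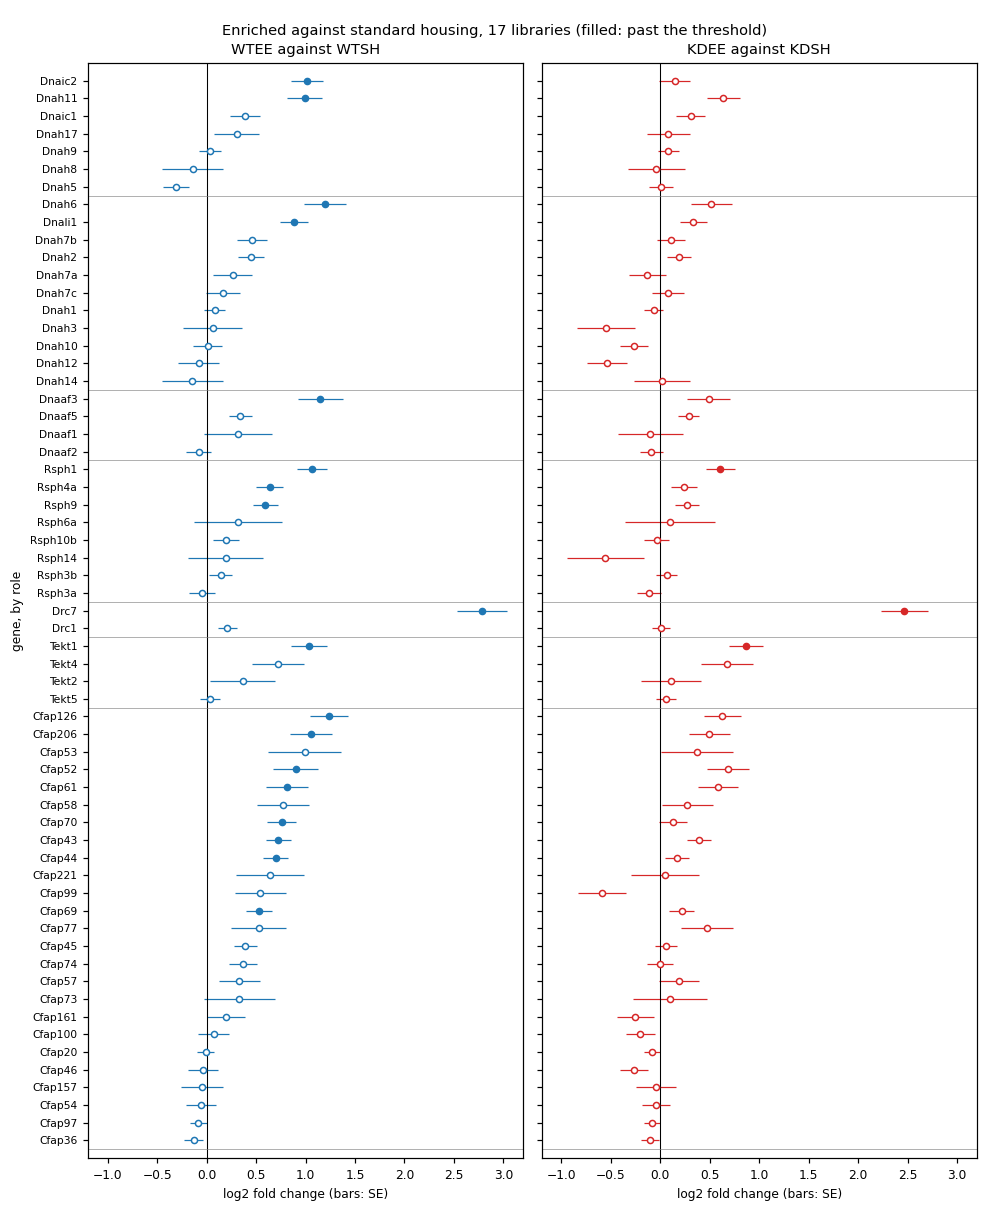
Log2 fold change (x axis) of each of the 61 motile cilium genes, in rows grouped by role, for WTEE against WTSH (left) and KDEE against KDSH (right) in the 17 libraries; bars are standard errors and filled points passed the threshold. On the left 18 points are filled, all above 0, and on the right 3, with Drc7 farthest out on both sides (2.78 and 2.47).

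Among the outer dynein arm genes, 2 of 7 rose in WTEE. Dnaic2, an intermediate chain of the arm, was 2.98, 3.31, 3.39, 3.18 and 3.85 CPM in WTSH and 6.00, 8.01 and 6.28 CPM in WTEE. All WTEE libraries were above all WTSH libraries, and the log2 fold change was 1.01 ± 0.16 (SE, adjusted p = 0.00029). Dnah11, a heavy chain needed for left-right asymmetry, rose by 0.99 ± 0.18 (adjusted p = 0.00081), from 3.61 ± 0.610 CPM (SD, n = 5) to 7.18 ± 1.38 CPM (SD, n = 3). The other 5 were not called. Dnaic1, the second intermediate chain, had a log2 fold change of 0.39 ± 0.15 (adjusted p = 0.22). Dnah5, the heavy chain most often mutated in primary ciliary dyskinesia, stood at 13.3, 10.003, 11.7, 13.7 and 11.4 CPM in WTSH and at 9.37, 7.69 and 11.8 CPM in WTEE, with overlap of the groups (log2 -0.31 ± 0.14, adjusted p = 0.29). Dnah9, the gene of this class with the most counts, was 28.4 ± 1.61 CPM (SD, n = 5) in WTSH and 29.0 ± 2.62 CPM (SD, n = 3) in WTEE, a log2 difference of 0.04 ± 0.11.

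Of the 11 inner dynein arm genes, 2 rose. Dnah6, an inner arm heavy chain, was 5.80, 7.13, 9.06, 7.19 and 6.48 CPM in WTSH and 16.5, 12.7 and 19.8 CPM in WTEE, again without overlap, and rose by 1.196 ± 0.22 on the log2 scale (adjusted p = 0.0010). Dnali1, a light intermediate chain, was 2.98 to 3.65 CPM in WTSH and 5.70, 6.01 and 6.06 CPM in WTEE (log2 0.88 ± 0.15, adjusted p = 0.00039). The remaining 9 heavy chains had log2 values from -0.15 (Dnah14) to 0.46 (Dnah7b). Dnah1, which had the most counts of the class, differed by 0.08 ± 0.10 (adjusted p = 0.80). Among the 4 assembly factors, which fold the arms in the cytoplasm, Dnaaf3 rose from 0.936 ± 0.253 CPM (SD, n = 5) to 2.09 ± 0.139 CPM (SD, n = 3), a log2 fold change of 1.15 ± 0.23 (adjusted p = 0.0026). Dnaaf5, the assembly factor with the most counts, was above all WTSH libraries in each WTEE library but was not called (0.34 ± 0.12, adjusted p = 0.13).

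Of 8 radial spoke genes, 3 rose. Rsph1, a spoke head protein, was 5.05, 5.65, 4.68, 4.62 and 4.52 CPM in WTSH and 9.57, 9.73 and 11.3 CPM in WTEE. The groups did not overlap, and the log2 fold change was 1.06 ± 0.15 (adjusted p = 9.1e-05). Rsph4a (0.64 ± 0.13, adjusted p = 0.0047) and Rsph9 (0.59 ± 0.13, adjusted p = 0.0076), both also of the spoke head, rose by less. The other 5, among them the paralogs Rsph3a (-0.05 ± 0.13) and Rsph3b (0.14 ± 0.11) of the spoke stalk, were not called.

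On GRCm38 (GENCODE M21), the 5 genes plotted by library that rose in WTEE, apart from Foxj1 and Ttr, are protein coding and lie at chr8:95055103-95078141 (Drc7, plus strand), chr17:31255019-31277383 (Rsph1, minus strand), chr11:72344722-72362442 (Tekt1, minus strand), chr11:114727408-114757889 (Dnaic2, plus strand) and chr6:73017606-73221651 (Dnah6, minus strand).

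The nexin-dynein regulatory complex was represented by Drc7 and Drc1. Drc7 was 3.73, 8.31, 5.47, 3.82 and 4.05 CPM in WTSH and 32.97, 34.2 and 36.6 CPM in WTEE. Its log2 fold change of 2.78 ± 0.25 (adjusted p = 3.7e-07) was the largest among the 61. Drc1 was 11.5 to 13.9 CPM in WTSH and 16.5, 15.3 and 12.4 CPM in WTEE, with overlap (0.21 ± 0.10, adjusted p = 0.34). Of the 4 tektins, Tekt1 rose from 2.76 ± 0.529 CPM (SD, n = 5) to 5.66 ± 0.568 CPM (SD, n = 3), a log2 fold change of 1.03 ± 0.18 (adjusted p = 0.00067). Tekt4 did not pass (0.72 ± 0.27, adjusted p = 0.18), and Tekt5, the tektin with the most counts, was 7.63 to 9.55 CPM in WTSH and 8.29 to 9.001 CPM in WTEE.

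Cfap genes encode a mixed group of cilia and flagella associated proteins, and 8 of 25 rose. Cfap126, a basal body protein also named Flattop, was 1.53, 2.13, 1.78, 2.34 and 2.43 CPM in WTSH and 4.48, 4.33 and 5.57 CPM in WTEE (log2 1.24 ± 0.19, adjusted p = 0.00021). It was followed by Cfap206 (1.06 ± 0.21, adjusted p = 0.0033), a protein of the radial spoke base, and by Cfap52 (0.90 ± 0.22), Cfap61 (0.81 ± 0.21) and Cfap70 (0.76 ± 0.15). Cfap43 (0.72 ± 0.13) and Cfap44 (0.70 ± 0.13), partners in a tether of the inner arms that are mutated in male infertility, moved by like amounts, and Cfap69 rose by 0.53 ± 0.13. The adjusted p of these 6 genes were between 0.00065 and 0.027. Cfap52, Cfap61 and Cfap69 lost the call when single libraries were left out, in 4, 5 and 3 of 17 cases. Cfap36, with the highest RPKM of all 61, was 86.8 ± 9.76 CPM (SD, n = 5) in WTSH and 79.3 ± 2.27 CPM (SD, n = 3) in WTEE, and its log2 difference of -0.13 ± 0.10 did not pass. Cfap20, a protein of the inner junction of the doublets that primary cilia also use, differed by -0.01 ± 0.08 and Cfap97 by -0.09 ± 0.09.

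**Figure D2:**
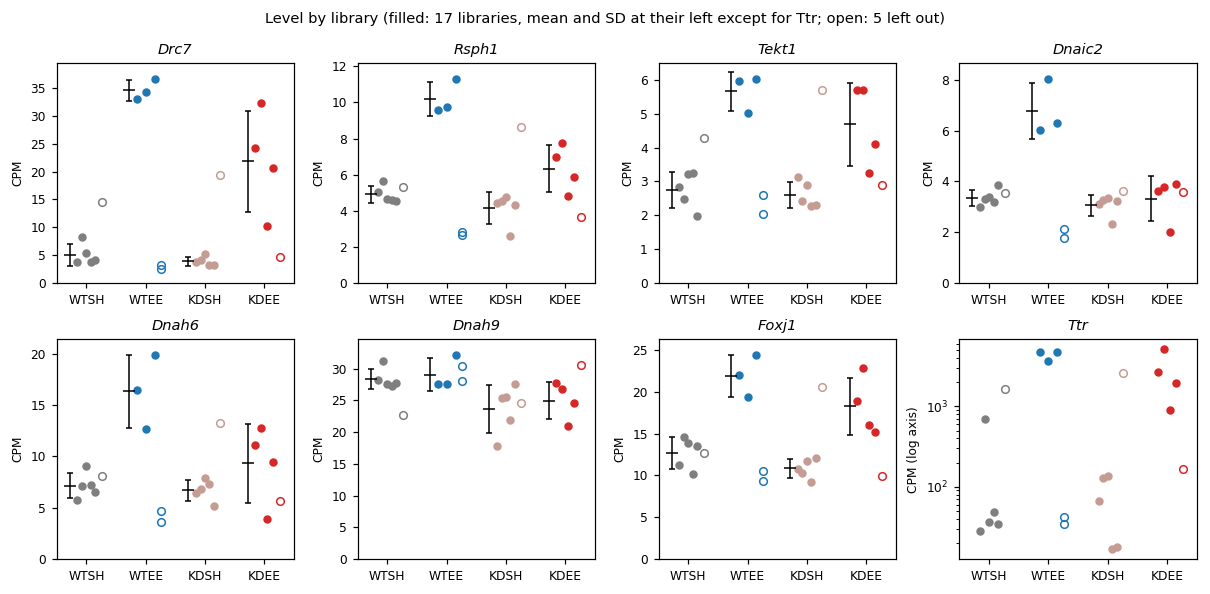
Level in CPM (y axis, log axis for Ttr) of 6 motile cilium genes, Foxj1 and Ttr in each of the 22 libraries by group (x axis). Filled points are the 17 libraries, with mean and SD at their left except for Ttr, and open points are the 5 removed ones; in Drc7, Rsph1, Tekt1, Dnaic2 and Dnah6 the filled WTEE points lie above all WTSH points while the open WTEE points lie within or below their range, and Dnah9 overlaps throughout.

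The comparison of KDEE with KDSH asks the same of MSK1 KD mice. In the 17 libraries 3 of the 61 genes rose and 0 fell, with 1.74% of all genes called, a median log2 of 0.08 over the 61 against 0.00 over all genes, and 40 of 61 positive. Drc7 was 3.86, 4.18, 5.18, 3.26 and 3.18 CPM in KDSH and 10.3, 20.6, 24.2 and 32.2 CPM in KDEE (log2 2.47 ± 0.24, adjusted p = 2.6e-06). Its KDEE libraries did not overlap KDSH, and their SD of 9.10 CPM (n = 4) was above that of 0.815 CPM in KDSH (n = 5). Tekt1 was 2.28 to 3.13 CPM in KDSH and 3.25, 4.11, 5.70 and 5.69 CPM in KDEE (0.86 ± 0.17, adjusted p = 0.0052). Rsph1 was 4.44, 4.56, 4.77, 2.60 and 4.33 CPM in KDSH and 4.80, 5.85, 6.98 and 7.74 CPM in KDEE (0.61 ± 0.15, adjusted p = 0.032). These 3 genes and Dnah11 (0.64 ± 0.17, adjusted p = 0.056) were those in which every KDEE library lay above every KDSH library, 4 of 61 against 2.13% of all genes tested. In 1 of 61 (against 0.984% of all) every KDEE library lay below, namely Dnah10, an inner arm heavy chain (-0.27 ± 0.14, adjusted p = 0.52). With the 22 libraries KDEE and KDSH overlapped in each of the 61 genes.

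Library 7, the shallowest of the 4 KDEE libraries, was the lowest of them for Ttr, Drc7, Rsph1, Tekt1, Dnah6 (3.94 CPM against 9.44 to 12.8 CPM in the others) and Dnaic2 (2.01 CPM against 3.61 to 3.88 CPM). Without it 7 of the 61 genes were called, the 3 above with Cfap43, Cfap52, Cfap126 and Dnah6. Without 32A or without 36A, 2 were called, Drc7 and Tekt1, and Rsph1 also lost its call without library 1. The share of all genes called in these fits is not given here, so the rise to 7 was not shown to be particular to the cilium genes. In the 22 libraries none of the 61 was called (0% of all genes), 5 had an unadjusted p under 0.05, and the median was 0.03. The lowest adjusted p there was 0.47. Library 2, a KDSH library outside the 17, then counts among the controls, with 19.4 CPM of Drc7, 8.64 CPM of Rsph1 and 5.70 CPM of Tekt1.

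Between the genotypes, no motile cilium gene was called in either housing. For WTSH against KDSH, 0 of the 61 passed (0% of all genes), 2 had an unadjusted p under 0.05, Cfap99 (log2 -0.69) and Dnah9 (0.26), DESeq2 called 0, and the median was 0.04. For WTEE against KDEE, 0 of the 61 passed (0.00535% of all genes), yet 54 of 61 were higher in WTEE, the median log2 was 0.31, and 20 had an unadjusted p under 0.05. DESeq2 called 2 of the 61, Dnaic2 and Rsph1, and the share of all genes that it called is not given here. The lowest adjusted p in edgeR was that of Dnaic2 (0.98 ± 0.17, adjusted p = 0.11), at 6.00, 8.01 and 6.28 CPM in WTEE and 2.01, 3.88, 3.61 and 3.79 CPM in KDEE. Rsph1 differed by 0.67 ± 0.16 (adjusted p = 0.36) and Dnah6 by 0.77 ± 0.23 (adjusted p = 0.53). In 24 of 61 genes every WTEE library lay above every KDEE library, against 4.04% of all genes tested. These were Cfap161, Cfap206, Cfap221, Cfap43, Cfap44, Cfap52, Cfap58, Cfap70, Cfap73, Dnaaf3, Dnaaf5, Dnah1, Dnah10, Dnah11, Dnah12, Dnah2, Dnah7b, Dnaic2, Dnali1, Drc7, Rsph1, Rsph14, Rsph9 and Tekt5. Markers of choroid plexus, ependyma and meninges were also higher in WTEE than in KDEE, none of them called. Of 6 astrocyte markers 2 were positive, with a median log2 of -0.11 and 3 at an unadjusted p under 0.05 in edgeR. Of 6 markers of hippocampal neurons 3 were positive, with a median of 0.02 and 0 at an unadjusted p under 0.05. All 15 choroid plexus markers were positive, with a median log2 of 0.64 and 0 at an unadjusted p under 0.05. All 9 ependymal markers tested were positive, with a median of 0.45 and 3 at an unadjusted p under 0.05, and all 6 meningeal markers, with a median of 0.35 and 2. With the 22 libraries 13 of 15, 6 of 9 and 5 of 6 were positive, with medians of 0.20, 0.04 and 0.17. The part of these cells in the difference of the cilium genes was not tested.

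Whether the difference between EE and SH was of unlike size in the genotypes was tested by the interaction of genotype and housing. None of the 61 genes was called (0% of all genes), 10 had an unadjusted p under 0.05, and DESeq2 called 0. The median log2 interaction was 0.26, with 53 of 61 positive, which means a larger value in WT. It was 0.87 ± 0.23 for Dnaic2 (adjusted p = 0.85), 0.68 ± 0.30 for Dnah6 and 0.32 ± 0.35 for Drc7. The difference between EE and SH passed in 18 genes in WT and in 3 in KD in the 17 libraries, and in 0 of either in the 22. It was therefore not shown to differ between genotypes. With the 22 libraries, none of the 61 was called for WTSH against KDSH, WTEE against KDEE or the interaction (each 0% of all genes), with 4, 2 and 1 at an unadjusted p under 0.05.

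**Figure D3:**
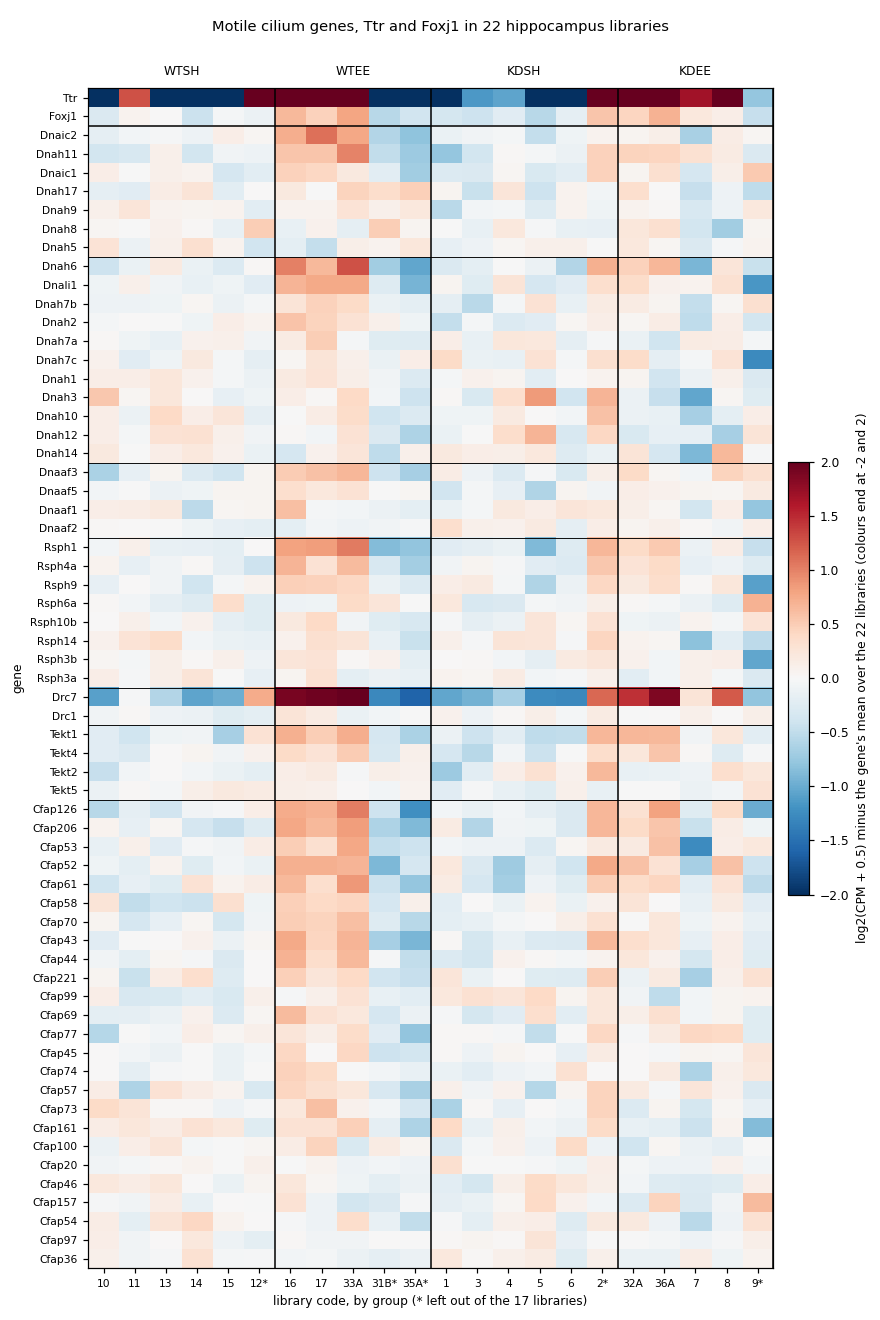
Log2(CPM + 0.5) minus the mean of each gene over the 22 libraries (colour, ending at -2 and 2) for Ttr, Foxj1 and the 61 motile cilium genes (rows, by role and then by fold change in WT) in each library (columns, by group, with * for the 5 removed). The 3 WTEE libraries of the 17 and library 2 of KDSH are red in Foxj1 and in the upper genes of each role, 31B and 35A are mostly blue there, and in library 12 Ttr and Drc7 are red but Foxj1 and most others are near 0.

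Against Ttr and Foxj1, each of the 61 genes was fitted in the 22 libraries with a mean for each group and a slope on the log2 CPM of the other gene, so that a slope is the log2 change of a gene for each doubling of Ttr or Foxj1 within groups. These slopes were called by the adjusted p alone. On Ttr, 21 of 61 genes had a positive slope and 0 a negative one that passed (edgeR, 6.74% of all genes called in either direction), with a median of 0.05. On Foxj1 the numbers were 23 and 0 (4.77% of all genes), with a median of 0.36 against -0.01 over all genes. Slopes on Ttr and Foxj1 are not of 1 scale, since Ttr varied over a far wider range and itself changed by 5.28 ± 0.80 for each doubling of Foxj1. The slopes rest on the same libraries as the comparisons above, together with the 5 removed, and are not independent of them.

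Drc7 had the steepest slope on both, 0.43 ± 0.03 on Ttr (adjusted p = 9.8e-12) and 2.61 ± 0.27 on Foxj1 (adjusted p = 6.9e-07). On Ttr it was followed by Cfap126 (0.21 ± 0.03), Dnah6 (0.19 ± 0.03), Rsph1 (0.19 ± 0.02) and Tekt1 (0.16 ± 0.02). On Foxj1 came Cfap126 (1.33 ± 0.20), Dnah6 (1.29 ± 0.18), Rsph1 (1.29 ± 0.13) and Cfap206 (1.15 ± 0.18). A slope near 1 on Foxj1 stands for a change in proportion to it, as in Dnah11 (1.01 ± 0.14) and Tekt1 (0.99 ± 0.16). Cfap57, Cfap161 and Tekt4 passed on Foxj1 with slopes of 0.62, 0.63 and 0.78 and did not pass on Ttr, and Dnaaf3 passed on Ttr (0.13 ± 0.03) and not on Foxj1 (0.71 ± 0.22, adjusted p = 0.069).

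At the other end, the 5 lowest slopes on Foxj1 were those of Dnah8 (-0.21 ± 0.24), Dnah5 (-0.13 ± 0.11), Cfap97 (-0.12 ± 0.06), Dnah14 (-0.07 ± 0.24) and Cfap36 (-0.06 ± 0.07). The lowest on Ttr were those of Dnah5 (-0.04 ± 0.02), Rsph6a (-0.03 ± 0.05), Cfap97 (-0.02 ± 0.01), Cfap157 (-0.01 ± 0.03) and Dnah8 (-0.01 ± 0.04). None of these passed. The standard errors were small for Cfap36 and Cfap97 and large for the sparse genes Dnah8, Dnah14 and Rsph6a.

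With Ttr and Foxj1 in 1 fit, Drc7 was the only one of the 61 genes with a slope on Ttr beside Foxj1 that passed (0.31 ± 0.04, adjusted p = 8.4e-06), where 0.525% of all genes were called, and it kept the call in each of the 22 fits that left out 1 library. In the 17 libraries the call was lost, with 0 of 61 genes called and 1 at an unadjusted p under 0.05 in edgeR. Its levels show this in library 12, where Ttr was 1661 CPM and Foxj1 was within the range of the other WTSH libraries. There Drc7 was 14.5 CPM, above the 3.73 to 8.31 CPM of the other WTSH libraries, and Tekt1 (4.30 CPM against 1.99 to 3.24 CPM) was above them as well, but Rsph1 (5.30 CPM), Dnaic2 (3.55 CPM) and Dnah6 (8.05 CPM) lay within their ranges. In library 11, with 691 CPM of Ttr, Drc7 was 8.31 CPM, the next highest. A slope on Foxj1 beside Ttr was called in 0 of 61 genes in edgeR (0% of all genes), with 14 at an unadjusted p under 0.05, while DESeq2 called Dnah11, Drc7 and Rsph1. In edgeR these were 1.04 ± 0.24, 0.99 ± 0.24 and 0.86 ± 0.21 for each doubling of Foxj1, with adjusted p of 0.31, 0.33 and 0.31.

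**Figure D4:**
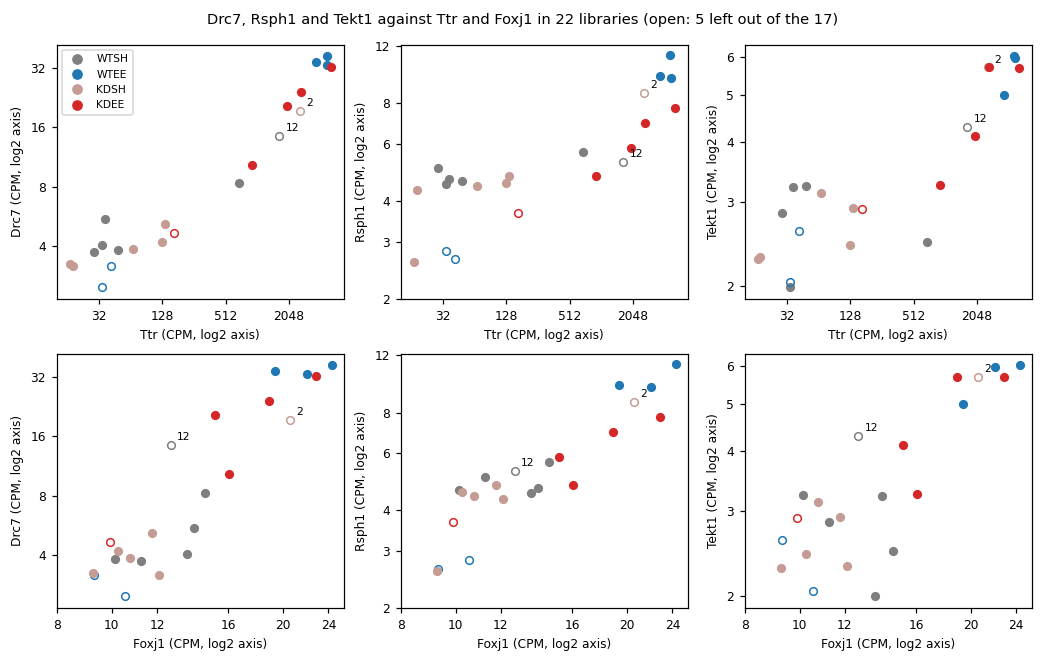
Levels of Drc7, Rsph1 and Tekt1 (y axes, CPM on a log2 scale) against Ttr (upper row) and Foxj1 (lower row; x axes, CPM on a log2 scale) in the 22 libraries, coloured by group, with the 5 removed libraries open and libraries 2 and 12 named. Drc7 increases along Ttr with library 12 in line at 1661 and 14.5 CPM, whereas against Foxj1 library 12 stands above its neighbours.

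Fitted in SH and EE libraries separately, a division chosen after seeing the data, the slopes on Ttr were lower in SH for Drc7, Rsph1 and Dnah6, a difference that was not tested. In the 12 SH libraries, Drc7 was the only one of 60 genes tested to pass on Ttr (0.33 ± 0.03, 0.825% of all genes called), and 0 of 60 passed on Foxj1 (0.0398% of all genes), with 17 at an unadjusted p under 0.05 in edgeR, and DESeq2 was not run there. In the 10 EE libraries 20 of 60 passed on Ttr (3.53% of all genes) and 16 of 60 on Foxj1 (2.99% of all genes). Drc7 had 0.54 ± 0.02 on Ttr there. The slope of Rsph1 on Ttr was 0.12 ± 0.03 in SH and 0.27 ± 0.02 in EE, and that of Dnah6 0.10 ± 0.03 and 0.29 ± 0.03. On Foxj1, Rsph1 had 0.998 ± 0.20 in SH (adjusted p = 0.084) and 1.44 ± 0.16 in EE. Among the EE libraries 31B, 35A and 9 carry the low end of both genes, and without 35A the slopes called in the 22 libraries went from 21 to 13 on Ttr and from 23 to 14 on Foxj1. In the 17 libraries 1 gene (Drc7) passed on Ttr and 0 on Foxj1. The share of all genes called without 35A and in the 17 libraries is not given here.

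When Ttr was added to the comparison of groups in the 22 libraries, the median log2 of the 61 genes for WTEE against WTSH was -0.03 and for KDEE against KDSH -0.20, with 0 genes called in each. With Foxj1 in its place they were -0.02 and -0.14, again with 0 called. Without either, the medians were 0.16 and 0.03 in the same libraries. For WTEE against KDEE the median was 0.14 without either, 0.17 with Ttr and 0.12 with Foxj1, and 0 of the 61 genes were called in edgeR in each, with 2, 5 and 3 at an unadjusted p under 0.05.

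Other genes of motile cilia were taken as a list of 52 with other names. In the 17 libraries 12 of the 49 tested rose in WTEE against WTSH and 0 fell, where 3.55% of all genes were called, with a median log2 of 0.32. Wdr63 (1.76 ± 0.26) and Spag16, a central pair protein (1.63 ± 0.23), rose most, followed by Ccdc113 (1.18 ± 0.21), Spata18 (1.17 ± 0.26) and the radial spoke gene Lrrc23 (1.11 ± 0.17). In KDEE against KDSH, 1 of 49 rose, Wdr63 (1.09 ± 0.26, adjusted p = 0.025), which is near the 1.74% called over all genes, and the median was 0.11. With the 22 libraries 0 of 49 were called by edgeR in either genotype, with 9 and 7 at an unadjusted p under 0.05. On Ttr 16 of 49 (6.74% of all genes) and on Foxj1 23 of 49 (4.77% of all genes) had a positive slope that passed.

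Of 8 tested genes that regulate cilium formation, Foxj1 rose in WTEE (0.79 ± 0.13, adjusted p = 0.00043) and in KDEE (0.75 ± 0.12, adjusted p = 0.00090), and so did Trp73, a p53 relative upstream of it (0.77 ± 0.17 and 0.82 ± 0.16). Myb fell in KDEE (-0.93 ± 0.24, adjusted p = 0.046), and neither Rfx2 (0.25 ± 0.14 and 0.10 ± 0.13), Rfx3 (-0.11 ± 0.11 and -0.06 ± 0.10), Gmnc (0.82 ± 0.23 and 0.23 ± 0.22), Mcidas (0.29 ± 0.44 and -0.71 ± 0.42) nor Ccno (0.00 ± 0.18 and -0.04 ± 0.17) passed in either genotype. The markers of choroid plexus, ependyma and meninges did not all move alike. All 15 choroid plexus markers, Ttr included, rose in both genotypes, with median log2 values of 4.19 and 4.17. Of the 9 ependymal markers tested, 2 rose in WTEE, Foxj1 and Dynlrb2 (1.01 ± 0.26, a dynein light chain that is also on the list of other cilium genes), and in KDEE Foxj1 rose and Ccdc153 fell (-0.61 ± 0.14, adjusted p = 0.024). The median log2 of the 9 was 0.16 in WT, with 8 positive, and -0.14 in KD, with 3 positive and 6 at an unadjusted p under 0.05. Without Foxj1, the summed level of the ependymal list was 15.7 to 20.6 CPM in WTSH, 21.1 to 21.95 CPM in WTEE, 17.4 to 24.0 CPM in KDSH and 13.5 to 16.98 CPM in KDEE. In the removed WTEE libraries it was 9.53 and 11.9 CPM. Of these markers Mia was at 0 in some libraries and was not tested. Of 6 meningeal markers 5 rose in WTEE and 3 in KDEE, with medians of 0.96 and 0.65. With the 22 libraries edgeR called 0 of the regulators and 0 of the choroid plexus, ependymal and meningeal markers in either genotype. The medians of the choroid plexus markers were then 2.47 and 2.02, with 14 and 8 of 15 at an unadjusted p under 0.05, those of the meningeal markers 0.53 and 0.41, with 3 and 1 of 6, and those of the ependymal markers -0.13 and -0.35, with 0 and 4 of 9. Of the 8 regulators 0 and 3 had an unadjusted p under 0.05. The part of each cell type in the values of the cilium genes was not tested.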

How the data were processed

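Poly-A RNA of whole hippocampus was sequenced in 24 libraries. The authors trimmed the reads, mapped them by STAR 2.5 on the GRCm38 genome, and HTSeq counted unique alignments on gene symbols without strand; the deposited raw counts were used as they are. Fragments that fell in no gene or overlapped several genes were left out. Of these and the fragments counted on genes together, they were 14.1% to 18.6% in the 22 libraries, 54.1% in 33B and 56.0% in 34B. Fragments not aligned, or not aligned uniquely, are outside these percentages. A deposited table with counts of the 17 libraries divided by size factors was not used.

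Groups were taken from the sample titles. The sources used here do not say whether each library is a separate mouse, so p-values measure the spread between libraries. In the 17 libraries this spread is what remained after the study's choice by correlation within groups. Adjusted p and groups without overlap in the 17 may thus look stronger than in libraries not so chosen. No 2 libraries held identical counts (276 pairs). Groups were compared in edgeR 4.0.16 (R 4.3.3): filterByExpr by group, TMM scaling, 1 quasi-likelihood fit with a mean for each group in the 17 libraries, Benjamini-Hochberg adjustment over all genes tested. Slopes on the log2 CPM of Ttr or Foxj1 (prior count 2) were fitted in the 22 libraries with group means. Standard errors are the log2 value over the root of F. Both fits were run on simulated counts. These had the same dispersion in every gene and no variation shared between genes apart from the changes put in. They do not show how the fits behave on these libraries. CPM and their ranges use TMM factors of the 22 libraries, and RPKM uses the exon length of GENCODE M21 (GRCm38). Alternatives were the 22 and 24 libraries, DESeq2 1.42.0 and its size factors, other filters, no lettered libraries, Ttr or Foxj1 as a covariate, no group terms, and fits without single libraries. Fits in SH or EE libraries alone were added after seeing the data.

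The genes, marker lists and tests were chosen with earlier results of these data known. Genes named are those called in a comparison, those with the highest mean CPM in each role, the 5 highest and 5 lowest slopes, those with no overlap between WTEE and KDEE, Ttr, Foxj1, genes of the lists and those at the edge of the rule. Drc1, Dnaic1, Rsph3a, Rsph3b, Dnah14, Dnah7b, Dnah5, Cfap97, Cfap20 and Cfap99 were named after their values were seen.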

Additional observations from a re-analysis of the deposited data

Results flagged for a closer look

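Dixon's ratio was taken in 256 sets, the values of a gene or of the summed genes in a group. The groups held the 5 or 6 libraries that passed quality control. Chance gives about 5% for independent sets, and these share their libraries. The gap of the highest or lowest library was above the 95% critical value in 21 sets (8.2%). Of these, 11 were in library 2, a KDSH library outside the 17, which was the highest of its group. Its levels were 2623.524 CPM for Ttr, 20.544 for Foxj1, 19.37 for Drc7, 13.207 for Dnah6, 10.67 for Rsph4a, 9.999 for Cfap43, 8.637 for Rsph1, 6.394 for Dnah10, 5.702 for Tekt1 and 4.214 for Cfap126, and 547.286 CPM for the sum of the 61 genes. Library 9, a KDEE library outside the 17 and the shallowest of the 22, was lowest for Dnali1 (1.224 CPM) and Rsph3b (2.338 CPM) and highest for Rsph6a (0.779 CPM) and Tekt5 (10.241 CPM). Library 12 of WTSH was lowest for Cfap161 (1.126 CPM) and highest for Dnah8 (1.376 CPM). Library 10 was lowest in WTSH for Cfap77 (0.339 CPM) and library 14 for Dnaaf1 (0.225 CPM), library 16 was highest in WTEE for Dnaaf1 (1.079 CPM), and library 7 was lowest in KDEE for Dnaic2 (2.011 CPM).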

How the results depend on the processing

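No paired analysis was possible because the groups compared share no replicate numbers. The count of the 61 genes that rose in WTEE against WTSH was 0 with 22 libraries, with 24, and with Ttr or Foxj1 as a covariate in the 22, and so was that for KDEE against KDSH. For KDEE against KDSH it was 1 without the lettered libraries, 6 with DESeq2 and 5 without a filter on low counts, and for WTEE against KDEE 2 with DESeq2 and 2 without a filter. The share of all genes called is not given for these settings, nor for the fits below in the 17 libraries or without single libraries. These counts therefore do not show a change particular to the cilium genes. All libraries with a letter in their code were EE. Without them only libraries 16 and 17 of WTEE and 7 and 8 of KDEE were left. Slopes called in the 17 libraries were 1 on Ttr, 0 on Foxj1 and 0 on Ttr beside Foxj1, those in SH libraries alone 1 on Ttr and 0 on Foxj1, and DESeq2 called 3 on Foxj1 beside Ttr. With single libraries left out, counts were 15 to 20 for WTEE against WTSH, 2 to 7 for KDEE against KDSH, 0 to 1 for WTEE against KDEE, 0 for WTSH against KDSH, the interaction and Foxj1 beside Ttr, 1 for Ttr beside Foxj1, 13 to 22 for Ttr and 14 to 23 for Foxj1. With Ttr as a covariate the log2 values for WTEE against WTSH turned to -0.14 (Cfap126), -0.048 (Cfap206), -0.27 (Cfap43), -0.075 (Cfap52), -0.17 (Cfap61), -0.11 (Dnah6), -0.043 (Dnali1), -0.19 (Rsph1), -0.037 (Rsph4a) and -0.022 (Tekt1), and for KDEE against KDSH to -0.43 (Rsph1) and -0.084 (Tekt1). With Foxj1 they turned to -0.057 (Cfap126), -0.021 (Cfap206), -0.22 (Cfap43), -0.038 (Cfap52), -0.14 (Cfap61), -0.041 (Dnah6), -0.14 (Rsph1) and -0.0078 (Rsph4a), and for KDEE against KDSH to -0.28 (Rsph1). Of 546 values of single genes under all alternatives, 525 kept their direction and 443 also passed the threshold. Most of these alternatives were fits to the same 17 libraries, whole or with 1 left out, so the values are not independent. None of the 61 genes passed with 22 or 24 libraries or with Ttr or Foxj1 as a covariate. The causes of these changes were not tested.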

Other observations

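The libraries set aside for failed quality control were examined apart. In 33B (WTEE) the 61 genes summed to 489.2 CPM, below the highest SH library (547.3 CPM). In 34B (KDEE), with 16442 counts on genes, 57 of the 61 had no count and the rest summed to 4 counts, too few to give a level.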
